A study of Homo sapiens with 10 samples.

Results

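The transcripts of the mitochondrial genome were taken as all genes whose chromosome is MT in the deposited gene tables, which are 37 of 58302 genes. They comprise 13 protein-coding genes, 2 rRNA genes and 22 tRNA genes, and the rule used the chromosome alone and no measured value. RNA-Seq was read from 10 libraries of 3 established liver cancer cell lines, with 1 library per condition, so no difference below has a replicate check and none is tested. The 5 SK-hep1 libraries were a mock control and cells overexpressing PSPC1, PSPC1 with PTK6 (PSPC1/PTK6), the PSPC1 mutant PSPC1-Y523F, or that mutant with PTK6 (PSPC1-Y523F/PTK6). PSPC1 is an RNA-binding protein of nuclear paraspeckles, PTK6 is a nonreceptor tyrosine kinase, and Y523F replaces a tyrosine of PSPC1 by phenylalanine. The 3 Mahlavu libraries were a mock control, cells labelled as overexpressing the C-terminal part of PSPC1 (PSPC1-CT131), and cells labelled with its nuclear localization mutant (Mut-NLS-CT131). The 2 Huh-7 libraries were untreated cells and cells given hepatocyte growth factor (HGF) at 10 ng/ml for 48 h. The constructs were carried by transfected plasmids, and how many clones each culture held is not given in the sources used here.

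Mitochondria keep a small circular genome of their own, which is copied into long RNAs from both strands. These RNAs carry coding and rRNA genes with tRNA genes between them, and the tRNAs are cut out to release the others. The coding genes give core subunits of respiratory complexes I, III and IV and of the ATP synthase (complex V), and the rRNAs build the mitochondrial ribosome that translates them. Every protein that copies, cuts or stabilizes these RNAs is made from a nuclear gene.

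Reads on genes numbered from 15245935 to 24278662 per library. The labels describe selection of poly-A RNA and the study's methods describe rRNA depletion. The gene PSPC1 was listed at 0 FPKM (fragments per kilobase of gene, scaled to the depth of the library) in the SK-hep1 mock library, 7.01 with PSPC1, 26.4 with PSPC1/PTK6, 2.28 with PSPC1-Y523F and 70.9 with PSPC1-Y523F/PTK6. Mahlavu mock had 47.3 FPKM, the library labelled PSPC1-CT131 had 30.8 and that labelled Mut-NLS-CT131 had 22.5, so neither labelled overexpression shows in the gene's level. PTK6 was 4.79 FPKM in SK-hep1 mock, 5.69 with PSPC1, 16.7 with PSPC1/PTK6, 4.09 with PSPC1-Y523F and 10.5 with PSPC1-Y523F/PTK6. Of 10 hepatocyte markers, including albumin (ALB), 10 reached 1 FPKM in both Huh-7 libraries, whereas only SERPINA1 did in each SK-hep1 and Mahlavu library and ALB was listed at 0 there. Of 8 endothelial markers, from 0 to 2 reached 1 FPKM per library.

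Only 16 of the 37 genes had reads in any library: all 13 coding genes, both rRNA genes and 1 tRNA gene, MT-TP (tRNA for proline). The other 21 tRNA genes had 0 reads in all 10 libraries, which at these depths allows each at most 3 reads, or a share of up to 1.97e-05% of the reads in the shallowest library. Such limits apply to counted reads, and they and all intervals below cover counting error only. By the study's methods the reads are longer than any tRNA gene, so a read there can also cover an adjoining gene. How such reads were counted is not given in the sources used here, so 0 counted reads do not show that the RNA was absent. The tRNA genes are 59 to 75 bases long, and MT-TP is the only one of them counted, so its sequence and that of its neighbour MT-TT (tRNA for threonine, 0 reads) are shown, each 5′ to 3′ on its own strand.
MT-TP: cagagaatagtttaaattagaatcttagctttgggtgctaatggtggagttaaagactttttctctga
MT-TT: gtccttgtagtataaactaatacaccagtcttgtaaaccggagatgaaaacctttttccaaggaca
MT-TP (ENSG00000210196) lies on the minus strand at MT:15956-16023 and MT-TT on the plus strand at MT:15888-15953 (GRCh38, sequences from GENCODE 29 transcripts). The 2 genes are separated by 2 bases, and beyond MT-TP no gene is annotated until MT-TF across the origin of the circle. MT-TF (tRNA for phenylalanine) borders the same gap and had 0 reads. MT-TP held 7 reads in SK-hep1 mock, 438 with PSPC1, 7 with PSPC1/PTK6, 17 with PSPC1-Y523F and 406 with PSPC1-Y523F/PTK6. In Mahlavu it held 138 reads in mock, 124 with PSPC1-CT131 and 106 with Mut-NLS-CT131, and in Huh-7 it held 549 reads untreated and 486 with HGF. The library kit named in the labels does not mark strand, so reads of MT-TP cannot be told apart from RNA of the other strand there.

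The mitochondrial genes took from 0.463% to 3.73% of the reads on all genes, lowest in SK-hep1 mock and highest in Huh-7 with HGF. In SK-hep1 the share was 0.463% in mock (95% Wilson interval 0.460 to 0.466), 1.19% with PSPC1 (1.19 to 1.2), 1.00% with PSPC1/PTK6 (1.00 to 1.01), 1.74% with PSPC1-Y523F (1.74 to 1.75) and 0.759% with PSPC1-Y523F/PTK6 (0.755 to 0.762). In Mahlavu it was 1.54% in mock (1.54 to 1.55), 0.820% with PSPC1-CT131 (0.816 to 0.824) and 1.51% with Mut-NLS-CT131 (1.5 to 1.52). In Huh-7 it was 3.40% untreated (3.39 to 3.40) and 3.73% with HGF (3.72 to 3.74). Each share is relative to the other RNAs of its library, and in bulk RNA fewer cells of a type and less RNA per cell cannot be told apart. Coding genes held 99.4% of the mitochondrial reads in SK-hep1 mock, 77.2% with PSPC1, 99.0% with PSPC1/PTK6, 99.6% with PSPC1-Y523F and 85.6% with PSPC1-Y523F/PTK6. They held from 98.2% to 98.4% in the 3 Mahlavu libraries, and 82.1% and 81.5% in Huh-7.

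**Figure D1:**
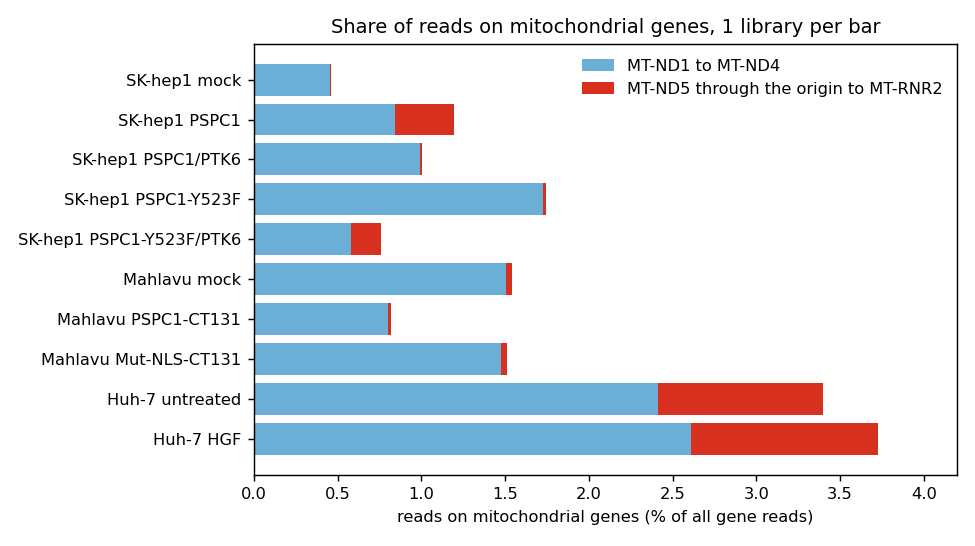
The horizontal axis gives reads on mitochondrial genes in percent of all gene reads, with 1 bar per library, divided into the genes from MT-ND1 to MT-ND4 and those from MT-ND5 through the origin to MT-RNR2. The second group is a thin band in SK-hep1 mock, PSPC1/PTK6 and PSPC1-Y523F and in Mahlavu, and a wide one in SK-hep1 PSPC1 and PSPC1-Y523F/PTK6 and in Huh-7.

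The levels of mitochondrial genes differed by their place on the circle, and this splits the libraries in a way that their labels do not give. The 6 counted genes from MT-ND5 through the origin to MT-RNR2, called the ND5-to-RNR2 stretch below, are neighbours: MT-ND5, MT-ND6, MT-CYB, MT-TP, MT-RNR1 and MT-RNR2. The stretch was defined after the values had been seen. It held 1.07% of the mitochondrial reads in SK-hep1 mock, 29.5% with PSPC1, 1.33% with PSPC1/PTK6, 0.883% with PSPC1-Y523F and 23.4% with PSPC1-Y523F/PTK6. It held 2.44%, 2.29% and 2.47% in Mahlavu mock, PSPC1-CT131 and Mut-NLS-CT131, and 29% and 30.0% in Huh-7 untreated and with HGF. The libraries with PSPC1 and with PSPC1-Y523F/PTK6 thus stand apart from the other 3 SK-hep1 libraries. Without the stretch, the mitochondrial genes took 0.458% of all gene reads in SK-hep1 mock, 0.842% with PSPC1 and 0.991% with PSPC1/PTK6. They took 1.73% with PSPC1-Y523F and 0.581% with PSPC1-Y523F/PTK6. The order of PSPC1 and PSPC1/PTK6 was thus the reverse of that in the full shares. Counts below are given for all 16 genes and for the 10 genes outside the stretch.

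MT-ND5 (ENSG00000198786, MT:12337-14148, plus strand), a proton-pumping subunit of complex I, was 4.84 FPKM in SK-hep1 mock, 162 with PSPC1, 7.86 with PSPC1/PTK6, 22.1 with PSPC1-Y523F and 130 with PSPC1-Y523F/PTK6. In Mahlavu it was 24.1 FPKM in mock, 13.2 with PSPC1-CT131 and 23.5 with Mut-NLS-CT131, and in Huh-7 it was 983 untreated and 1144 with HGF. Its neighbour MT-ND4 (ENSG00000198886, MT:10760-12137, plus strand), another complex I subunit, was 120, 452, 287, 465 and 285 FPKM in the same order of the SK-hep1 libraries. MT-ND4 was thus 24.9 times MT-ND5 in mock, 36.5 times with PSPC1/PTK6 and 21.1 times with PSPC1-Y523F, against 2.79 times with PSPC1 and 2.20 times with PSPC1-Y523F/PTK6. The same ratio was 23.9, 26.5 and 31.3 in the Mahlavu libraries and 2.88 and 2.84 in Huh-7. Only 3 tRNA genes lie between MT-ND4 and MT-ND5, with no base left over between neighbours, and their sequences are shown because the change in level falls there.
MT-TH: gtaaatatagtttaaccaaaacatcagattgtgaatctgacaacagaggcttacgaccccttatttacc
MT-TS2: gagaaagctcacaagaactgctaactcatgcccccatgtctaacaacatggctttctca
MT-TL2: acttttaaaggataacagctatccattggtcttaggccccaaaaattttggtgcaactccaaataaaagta
MT-TH (tRNA for histidine, MT:12138-12206), MT-TS2 (tRNA for serine, MT:12207-12265) and MT-TL2 (tRNA for leucine, MT:12266-12336) are all on the plus strand.

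MT-ND6 (ENSG00000198695, MT:14149-14673), the only coding gene on the minus strand and also a complex I subunit, was 5.89 FPKM in SK-hep1 mock, 159 with PSPC1, 8.86 with PSPC1/PTK6, 22 with PSPC1-Y523F and 108 with PSPC1-Y523F/PTK6. Since strand is not marked, reads of MT-ND6 cannot be told apart from RNA of the plus strand at the same place. Its level stayed between 0.831 and 1.69 times that of MT-ND5 in all 10 libraries. MT-CYB (ENSG00000198727, MT:14747-15887, plus strand), the cytochrome b of complex III, was 7.76 FPKM in SK-hep1 mock, 369 with PSPC1, 12 with PSPC1/PTK6, 34.5 with PSPC1-Y523F and 345 with PSPC1-Y523F/PTK6. In Mahlavu MT-CYB ranged from 18.4 to 46.2 FPKM, and in Huh-7 it was 1067 and 1151. For each of these 3 genes both high SK-hep1 libraries thus lay above all Mahlavu libraries and below both Huh-7 libraries.

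MT-RNR2 (ENSG00000210082, MT:1671-3229, plus strand), the 16S rRNA, had 526 reads in SK-hep1 mock, 49924 with PSPC1, 2077 with PSPC1/PTK6, 1177 with PSPC1-Y523F and 22061 with PSPC1-Y523F/PTK6. In Mahlavu it had 5683 reads in mock, 2235 with PSPC1-CT131 and 4503 with Mut-NLS-CT131, and in Huh-7 it had 86015 untreated and 92906 with HGF. MT-RNR1 (ENSG00000211459, MT:648-1601, plus strand), the 12S rRNA, had 93, 4691, 335, 134 and 3973 reads in the SK-hep1 libraries in the same order. Per length MT-RNR2 was between 3.40 and 9.57 times MT-RNR1 over the 10 libraries. MT-RNR2 ends where the gene of the tRNA for leucine, MT-TL1 (MT:3230-3304, plus strand), begins, and 2 bases after that gene MT-ND1 begins. This is the other end of the stretch, and the sequence of MT-TL1, with 0 reads, is shown for it.
MT-TL1: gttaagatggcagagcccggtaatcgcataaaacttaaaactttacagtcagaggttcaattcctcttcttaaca
MT-ND1 (ENSG00000198888, MT:3307-4262, plus strand), a complex I subunit, was 20.5 times MT-RNR2 per length in SK-hep1 mock, 13.3 times with PSPC1/PTK6 and 43.8 times with PSPC1-Y523F. It was 0.292 times MT-RNR2 with PSPC1 and 0.852 times with PSPC1-Y523F/PTK6, between 3.78 and 6.97 times in Mahlavu, and 0.283 and 0.249 times in Huh-7. The GC content did not separate the groups, at 42.7 to 46.3% for the 3 coding genes inside the stretch and 39.6 to 47.7% for the 10 outside it.

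**Figure D2:**
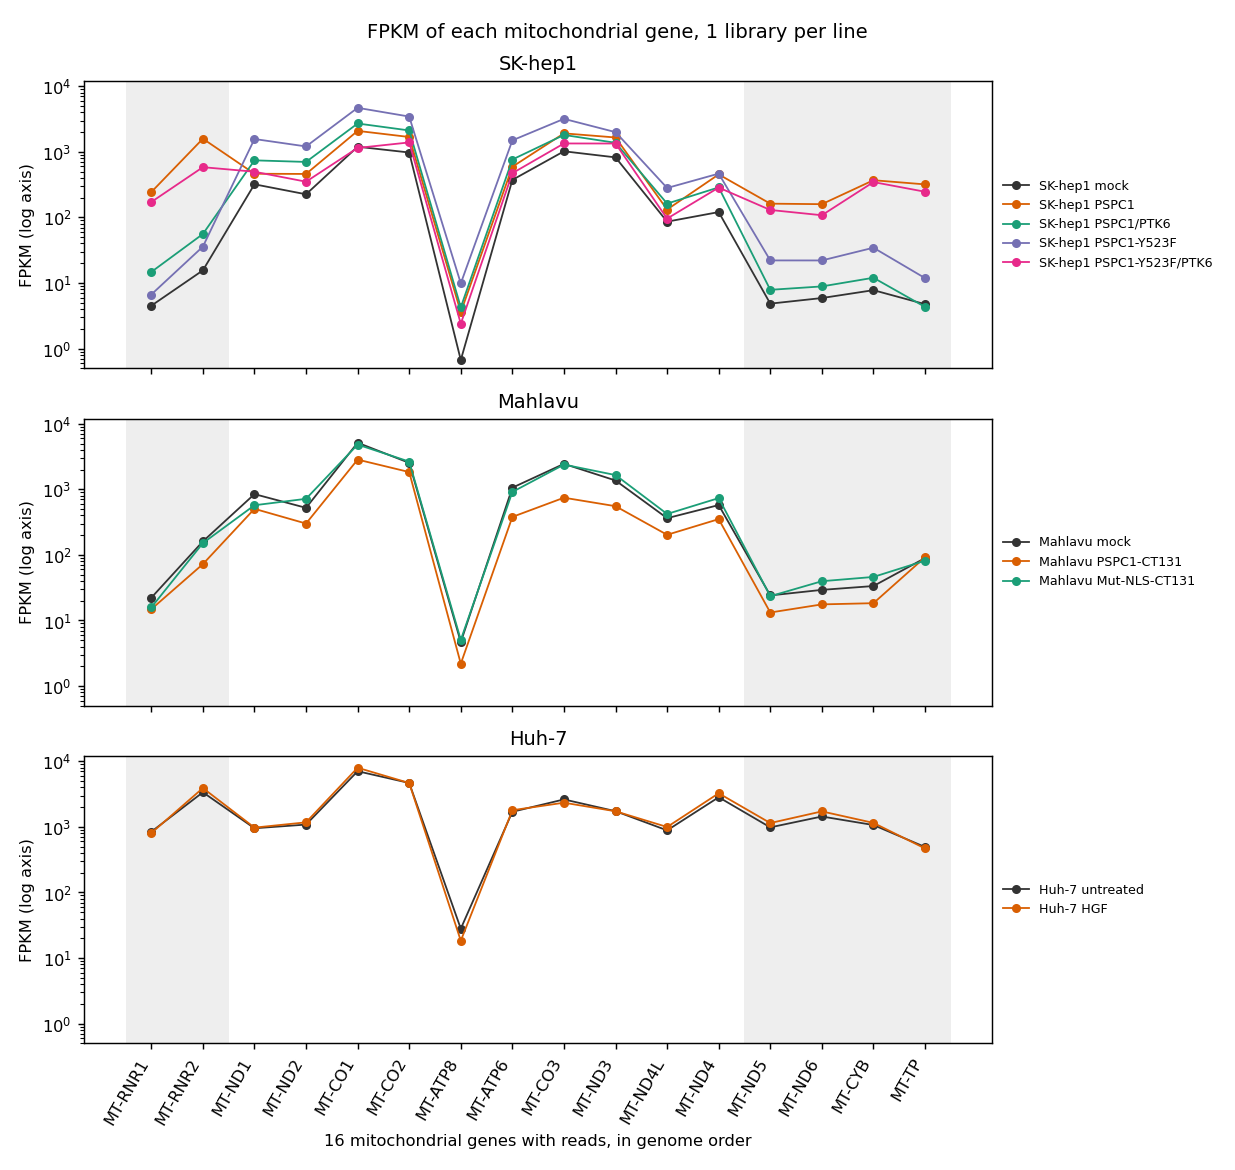
FPKM on a log axis of the 16 mitochondrial genes with reads, in genome order, with 1 panel per cell line, 1 line per library and the ND5-to-RNR2 stretch shaded grey. The lines of SK-hep1 mock, PSPC1/PTK6 and PSPC1-Y523F and of the Mahlavu libraries drop inside the shading, MT-ND4 being 21.1 to 36.5 times MT-ND5, and the other lines drop by less than 3 times.

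The same split of the SK-hep1 libraries was searched for among all genes, after the values had been seen. Among 12023 genes that averaged 1 FPKM or more in SK-hep1, 19 were at least 2-fold higher on the log2(FPKM + 1) scale in both the PSPC1 and the PSPC1-Y523F/PTK6 library than in each of the other 3, and 0 were at least 2-fold lower in both. The 19 held all 6 counted genes of the stretch and all 8 genes of the tables with an RRP symbol, which are nuclear genes on several chromosomes, named for ribosomal RNA processing. RRP12 was 2.17 FPKM in mock, 52.6 with PSPC1, 1.74 with PSPC1/PTK6, 3.67 with PSPC1-Y523F and 82.8 with PSPC1-Y523F/PTK6. RRP9 was 2.54, 53.3, 1.73, 3.28 and 77.8 FPKM in the same order. The summed level of the 8 genes was 13.5 FPKM in mock, 276 with PSPC1, 12 with PSPC1/PTK6, 21.3 with PSPC1-Y523F and 353 with PSPC1-Y523F/PTK6, with 13.8 to 18.2 in Mahlavu and 158 to 168 in Huh-7. The other 5 genes were FTSJ1, METTL25B, MIR3648-1, MRM2 and ENSG00000277437, of which FTSJ1 and MRM2 encode RNA methyltransferases. MIR3648-1 rested on 8 reads with PSPC1 and 19 with PSPC1-Y523F/PTK6, and ENSG00000277437 on 5 and 4. Both had 0 or 1 reads in the other SK-hep1 libraries. The stretch holds both mitochondrial rRNAs. The nuclear genes were picked by the split that the stretch shows, so their likeness to it within SK-hep1 follows from the selection. RRP15, RRP8 and RRP1B were below 1 FPKM in the other 3 SK-hep1 libraries and passed the filter only through the high ones. Whether reads matching a set of ribosomal sequences were removed from some libraries and not from others before the tables were made is not given in the sources used here, and its part in the levels of the stretch was not tested. Each level, share and fold that includes the 6 genes of the stretch carries this limit, the low values of SK-hep1 mock and Mahlavu included. The levels of the nuclear genes found by this split carry it too.

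**Figure D3:**
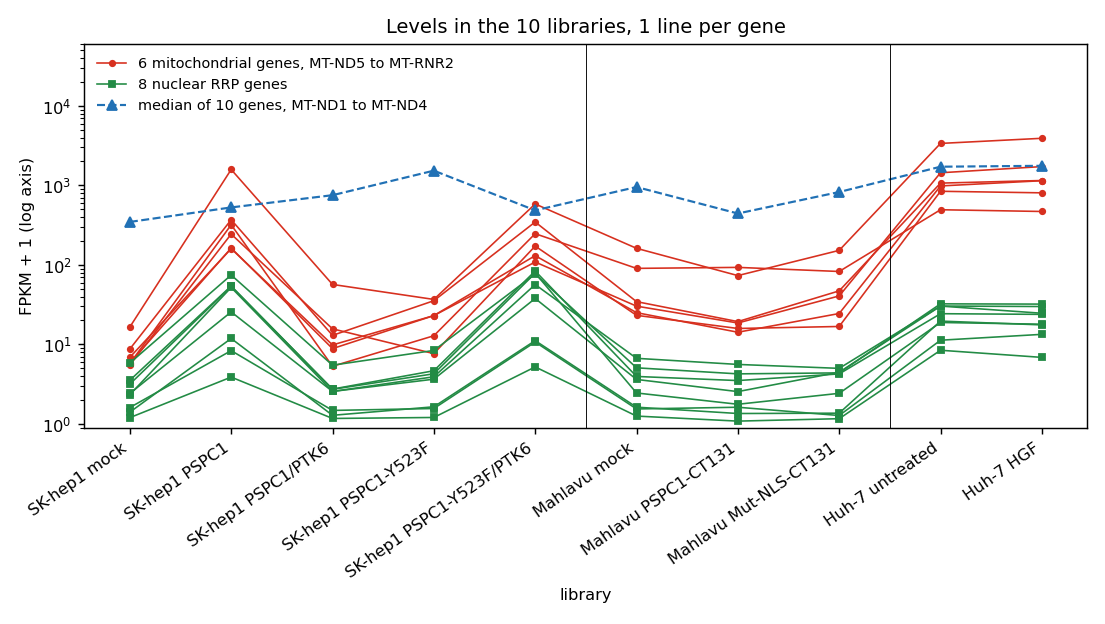
FPKM + 1 on a log axis in each of the 10 libraries, with lines joining the values of 1 gene, for the 6 counted mitochondrial genes of the ND5-to-RNR2 stretch, the 8 nuclear RRP genes and the median of the 10 counted genes from MT-ND1 to MT-ND4. Among the SK-hep1 libraries both sets peak with PSPC1 and PSPC1-Y523F/PTK6 (summed RRP level 276 and 353 FPKM), while the median of the other mitochondrial genes is highest with PSPC1-Y523F.

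Outside the stretch the levels differed between SK-hep1 libraries by 2.43 to 5.37 times, apart from MT-ATP8, and were highest with PSPC1-Y523F for all 10 genes. Complex IV passes electrons to oxygen, and 1 of its core subunits was the highest mitochondrial gene in every library. This was MT-CO2 in SK-hep1 PSPC1-Y523F/PTK6 and MT-CO1 in all others. Not every subunit led, as MT-ND3 (1338 FPKM) was above MT-CO1 with PSPC1-Y523F/PTK6. In both Huh-7 libraries MT-ND4 and MT-RNR2 were above MT-CO3. MT-CO1 (ENSG00000198804, MT:5904-7445, plus strand) was 1195 FPKM in mock, 2084 with PSPC1, 2702 with PSPC1/PTK6, 4685 with PSPC1-Y523F and 1146 with PSPC1-Y523F/PTK6. MT-CO2 (ENSG00000198712, MT:7586-8269, plus strand) was 976, 1682, 2115, 3447 and 1390 FPKM in the same order. MT-CO3 (ENSG00000198938, MT:9207-9990, plus strand) was 1018, 1911, 1808, 3180 and 1340 FPKM. Mock was lowest for MT-CO2 and MT-CO3, and for MT-CO1 mock and PSPC1-Y523F/PTK6 were nearly level.

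Among complex I subunits outside the stretch, MT-ND1 was 320 FPKM in SK-hep1 mock, 463 with PSPC1, 741 with PSPC1/PTK6, 1567 with PSPC1-Y523F and 497 with PSPC1-Y523F/PTK6. MT-ND2 (ENSG00000198763, MT:4470-5511, plus strand) was 225, 459, 701, 1207 and 350 FPKM, and MT-ND3 (ENSG00000198840, MT:10059-10404, plus strand) was 822, 1653, 1372, 1995 and 1338. MT-ND4L (ENSG00000212907, MT:10470-10766, plus strand) was the lowest of them, at 86.1, 132, 162, 281 and 95.8 FPKM. The ATP synthase subunit MT-ATP6 (ENSG00000198899, MT:8527-9207, plus strand) was 373, 592, 763, 1495 and 472 FPKM. MT-ATP8 (ENSG00000228253, MT:8366-8572, plus strand), the other ATP synthase subunit, held only 3, 15, 21, 43 and 12 reads in these libraries, 9 to 22 in Mahlavu, and 95 and 58 in Huh-7.

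MT-ATP8 and MT-ATP6 are read from overlapping bases, as are MT-ND4L and MT-ND4, and reads there could belong to either gene. The windows around both overlaps are shown because MT-ATP8 was from 60.6 to 558 times lower than MT-ATP6, while MT-ND4L was 1.40 to 3.43 times lower than MT-ND4. Capitals mark the bases that belong to both genes, on the plus strand.
MT-ATP8 and MT-ATP6: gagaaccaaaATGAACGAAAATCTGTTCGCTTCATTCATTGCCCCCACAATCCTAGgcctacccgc
MT-ND4L and MT-ND4: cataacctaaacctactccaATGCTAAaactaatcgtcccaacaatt
The windows lie at MT:8517-8582 and MT:10740-10786, and the shared bases at MT:8527-8572 (46 of the 207 bases of MT-ATP8) and MT:10760-10766 (7 of the 297 bases of MT-ND4L). How the counting treated reads in shared bases is not given in the sources used here, and its part in these ratios was not tested.

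In the comparisons that follow, a difference is that of log2(FPKM + 1) between 2 libraries, a fold is the ratio of FPKM with its 95% counting interval, and a gene was called when the difference was at least 2-fold among genes averaging 1 FPKM or more in the pair. All 16 genes with reads passed this filter in every comparison, and the other 21 did not. The 4 SK-hep1 comparisons with mock share that library. With PSPC1, 10 of 16 genes were at least 2-fold higher than in mock and 0 lower, against 3.32% and 2.39% of 11857 genes tested. Outside the stretch 4 of 10 were higher: MT-ND4, MT-ATP8 on few reads, and MT-ND2 and MT-ND3, which were only just past 2-fold at 1.03 and 1.01. MT-RNR2 was 102-fold higher (93.4 to 111), MT-CYB 47.5-fold (41.2 to 55.1) and MT-ND5 33.5-fold (29 to 38.9), whereas MT-CO1 was 1.74-fold (1.72 to 1.77) and MT-ND1 1.45-fold (1.40 to 1.5). The median difference of the 10 genes outside the stretch was 0.85, and that of all genes tested was -0.06.

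With PSPC1/PTK6, 9 of 16 genes were higher and 0 lower than in mock, against 8.16% and 1.96% of 12268 genes tested. Outside the stretch 7 of 10 were higher, led by MT-ATP8 on few reads and MT-ND2, which was 3.12-fold higher (3.02 to 3.21). Inside it only the rRNAs were called, MT-RNR2 at 3.58-fold (3.26 to 3.95) and MT-RNR1 at 3.27-fold (2.59 to 4.16), while MT-CYB was 1.55-fold (1.29 to 1.86). The median difference was 1.15 outside the stretch and 0.15 over all genes. In an alternative added once the data had been seen, which removed the dependence on gene length and GC, 4 of 16 were called: both rRNAs, MT-ND2 and MT-ATP8.

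With PSPC1-Y523F, 15 of 16 genes were higher and 0 lower than in mock, against 2.51% and 2.98% of 11773 genes tested, and 10 of 10 were higher outside the stretch. The 13 coding genes were all among them, with differences from 1.28 for MT-ND3 to 2.70 for MT-ATP8 and a median of 1.97, against -0.06 over all genes. MT-ND2 was 5.37-fold higher (5.21 to 5.53), MT-ND1 4.90-fold (4.78 to 5.04) and MT-CO1 3.92-fold (3.88 to 3.96). MT-CYB was 4.44-fold higher (3.79 to 5.22) and MT-ND5 4.56-fold (3.89 to 5.37), so these genes of the stretch differed by about as much as their neighbours. MT-RNR1 alone was not called, at 1.48-fold (1.13 to 1.95), and the interval of MT-TP, called at 2.50-fold on 17 against 7 reads, holds a fold of 1 (0.984 to 7.12).

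With PSPC1-Y523F/PTK6, 8 of 16 genes were higher and 0 lower than in mock, against 3.07% and 2.19% of 11751 genes tested. They were the 6 genes of the stretch, MT-ND4 at 2.36-fold (2.28 to 2.46) and MT-ATP8 on 12 against 3 reads, whose interval holds a fold of 1 (0.964 to 19.7). MT-TP was 51.8-fold higher (24.9 to 130), MT-CYB 44.5-fold (38.6 to 51.6), MT-RNR1 38.1-fold (31.1 to 47.4) and MT-RNR2 37.4-fold (34.3 to 40.9). MT-CO1 was at 0.959-fold (0.946 to 0.972) and MT-CO2 at 1.42-fold (1.39 to 1.45), and the median difference outside the stretch was 0.57 against -0.13 over all genes.

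The effect of adding PTK6 was read against the library with the same PSPC1 form. Added to PSPC1, it went with 6 of 16 genes lower and 0 higher, against 1.03% and 5.39% of 12280 genes tested, and all 6 were those of the stretch. MT-CYB was lower by 30.7 times, MT-RNR2 by 28.4 times, MT-ND5 by 20.6 times and MT-TP by 73.9 times on 7 against 438 reads. Outside the stretch 0 of 10 were called, with differences from -0.66 for MT-ND4 to 0.68 for MT-ND1. The median of the 13 coding genes was 0.20, the same as over all genes, and it was -0.09 after quantile normalization of the 8 SK-hep1 and Mahlavu libraries, so it has no stable direction.

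Added to PSPC1-Y523F, PTK6 went with 6 genes higher and 8 lower, against 3.65% and 2.48% of 11717 genes tested. The 6 higher genes were those of the stretch, with MT-RNR1 25.8-fold (21.7 to 30.8), MT-RNR2 16.3-fold (15.4 to 17.3), MT-CYB 10.0-fold (9.34 to 10.8) and MT-ND5 5.88-fold (5.47 to 6.33). The 8 lower genes were all outside it, and MT-CO1 was lower by 4.09 times, MT-ND2 by 3.45 times and MT-ND1 by 3.15 times. MT-ND3 and MT-ND4 were at 0.670-fold (0.654 to 0.687) and 0.613-fold (0.597 to 0.629) and were not called. The library with PSPC1-Y523F holds the highest level of each gene outside the stretch, so these differences and those of PSPC1-Y523F against mock rest on the same library.

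**Figure D4:**
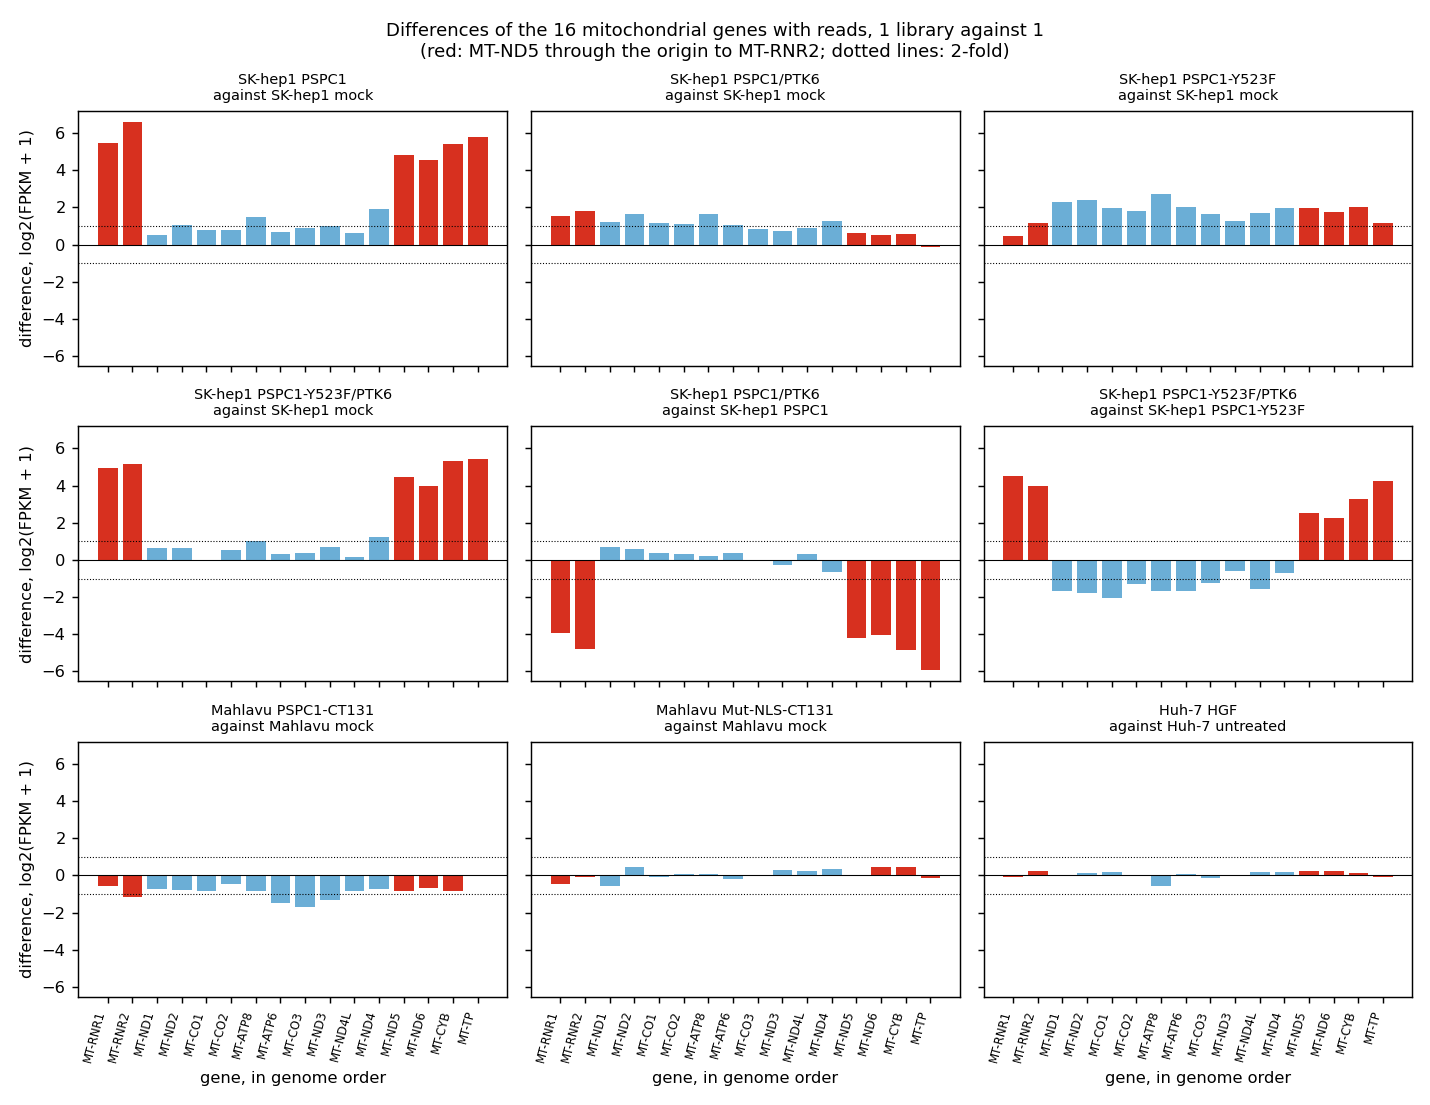
Difference of log2(FPKM + 1) between 2 libraries for the 16 mitochondrial genes with reads, in genome order, with 1 panel per comparison, the ND5-to-RNR2 stretch in red, the other genes in blue and dotted lines at 2-fold. Red bars lie between 3.98 and 6.58 in PSPC1 and PSPC1-Y523F/PTK6 against mock and between -5.91 and -3.96 in PSPC1/PTK6 against PSPC1, blue bars stay between -2.03 and 2.70 in every panel, and all bars of Mut-NLS-CT131 and HGF stay inside the dotted lines.

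In Mahlavu all coding genes were lower in the library labelled PSPC1-CT131 than in mock, by differences from -0.47 for MT-CO2 to -1.71 for MT-CO3. At least 2-fold lower were 4 of 16 genes and higher 0, against 7.67% and 1.49% of 13051 genes tested. MT-CO3 was 2448 FPKM in mock, 746 with PSPC1-CT131 and 2385 with Mut-NLS-CT131. MT-ATP6 was 1060, 380 and 913 FPKM, MT-ND3 was 1364, 553 and 1651, and MT-RNR2 was 161, 72.4 and 151, which completes the 4. Next to MT-CO3, the most abundant transcript MT-CO1 was 5140, 2842 and 4811 FPKM, a fold of 0.553 (0.548 to 0.557), and MT-CO2 was 2535, 1835 and 2650. The lower genes MT-ATP6, MT-CO3 and MT-ND3 follow each other on the plus strand, with only a tRNA gene between the last 2. MT-TP did not move with them, at 1.03-fold (0.801 to 1.32). In this pair the differences of all genes rose with the GC content of their longest transcript (Spearman's rho 0.60 across 13036 genes, which share both libraries), and the median of all genes was -0.24. With the dependence on length and GC removed as above, 1 gene was lower, MT-CO3 at -1.32, 1 was higher, MT-TP at 1.48, and the median of the 13 coding genes was -0.41.

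Against the same mock library, Mut-NLS-CT131 had 0 of 16 genes called in either direction, where 2.17% of 13218 genes tested were higher and 4.55% lower. The differences ran from -0.56 for MT-ND1 to 0.46 for MT-ND2, with a median of 0.09 for the coding genes. MT-ND1 was 846 FPKM in mock and 572 with Mut-NLS-CT131, and MT-ND2 was 522 and 717, so these neighbours on the genome differed in opposite directions by more than counting error (0.660 to 0.693 and 1.34 to 1.41).

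In Huh-7, HGF left 0 of 16 genes past 2-fold, where 0.463% of 14264 genes tested were higher and 0.372% lower. MT-CO1 was 7060 FPKM untreated and 7977 with HGF, a fold of 1.13 (1.12 to 1.14), and MT-ND6 was 1440 and 1723, a fold of 1.2 (1.17 to 1.23). MT-CO3 was lower, at 2623 and 2338 FPKM, a fold of 0.891 (0.877 to 0.906). MT-ATP8 had the widest difference, -0.58 on 95 and 58 reads. The counting intervals of MT-ND1, MT-CO2, MT-ND3 and MT-TP hold a fold of 1.

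Some mitochondrial genes were among the most abundant of all genes, and the cell lines differed in which. Others ranked low, and in SK-hep1 mock MT-RNR2 ranked 5757, MT-ND5 8738 and MT-ATP8 12486. MT-CO1 ranked 2 of 58302 by FPKM in Mahlavu mock and in Huh-7 with HGF, 3 in untreated Huh-7, and from 6 to 81 in SK-hep1. The number of mitochondrial genes among the 100 highest was 14 and 13 in the Huh-7 libraries, 2 to 6 in Mahlavu and 3 to 7 in SK-hep1. Between the control libraries of the lines, MT-CO3 was 1018 FPKM in SK-hep1, 2448 in Mahlavu and 2623 in Huh-7, and MT-ND3 was 822, 1364 and 1734. The genes of the stretch differed more, with MT-ND6 at 5.89, 29.3 and 1440 FPKM. With 1 control library per line, line and library cannot be told apart.

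By complex, the 3 subunits of complex IV made up 51.7 to 62.0% of the summed coding FPKM in SK-hep1, 65.8 to 69.8% in Mahlavu and 51.8 to 53.1% in Huh-7. MT-CYB, the only complex III gene, made up 0.151% in SK-hep1 mock, 3.64% with PSPC1, 0.112% with PSPC1/PTK6, 0.187% with PSPC1-Y523F and 4.61% with PSPC1-Y523F/PTK6. Its share was 0.224 to 0.308% in Mahlavu and 3.94 and 3.98% in Huh-7. MT-CO1 was 1.22 to 1.36 times MT-CO2 in 4 SK-hep1 libraries and 0.824 times in PSPC1-Y523F/PTK6. MT-CO1 was 3.81 times MT-CO3 in the library labelled PSPC1-CT131 and 2.10 and 2.02 times in the other Mahlavu libraries. Over the 12 coding genes of the plus strand, FPKM fell with distance along the genome by a Spearman's rho of -0.40 to -0.52 in SK-hep1, -0.36 to -0.46 in Mahlavu and -0.11 and -0.07 in Huh-7. Over the 10 of them outside the stretch, rho was -0.21 to -0.33, -0.05 to -0.24, and 0.05 and 0.13. The genes of 1 library share its depth and precursor RNA.

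Nuclear genes that copy and keep mitochondrial DNA, process its RNA, or complete the same complexes were taken as lists from general knowledge. Of 31 genes for processing and stability of mitochondrial RNA, 1 was at least 2-fold higher with PSPC1, MRM2 (which methylates the 16S rRNA), at 3.34 FPKM in mock and 11.7 with PSPC1, where 3.32% of all genes tested were higher, so the list does not stand out by this count. MRM2 was 2.28 FPKM with PSPC1/PTK6, 5.25 with PSPC1-Y523F and 13 with PSPC1-Y523F/PTK6. It is among the genes picked above by the split of SK-hep1 libraries, so its highest levels lie in the same 2 libraries by selection. The limit on the levels of the stretch holds for MRM2 too. LRPPRC, which keeps mitochondrial mRNA stable, was 84.9 FPKM in mock, 51.6 with PSPC1, 84.3 with PSPC1/PTK6, 53.4 with PSPC1-Y523F and 54.8 with PSPC1-Y523F/PTK6. Its partner SLIRP was 62.5 FPKM in mock and 28.6 with PSPC1-Y523F/PTK6. With PSPC1/PTK6 and with PSPC1-Y523F, 0 of these 31 were called against mock. Over all genes, from 1.96% to 2.98% were lower and from 2.51% to 8.16% higher in the 4 comparisons with mock, so at such shares a list of this size holds few called genes or none.

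Of 16 genes for transcription and upkeep of mitochondrial DNA, 15 passed the filter in SK-hep1, and against mock only TOP1MT (mitochondrial topoisomerase I) was called, at 75.7 FPKM in mock and 37.2 with PSPC1-Y523F. POLRMT, the mitochondrial RNA polymerase, was 282 FPKM in mock, 230 with PSPC1, 224 with PSPC1/PTK6, 299 with PSPC1-Y523F and 234 with PSPC1-Y523F/PTK6. TFAM, which packs the DNA and starts transcription, was 25.0 FPKM in mock and 17.1 to 21.5 in the others. Of 26 nuclear subunits of complexes IV and V, only COX6A1 was called against mock, at 15.6 FPKM in mock and 5.58 with PSPC1-Y523F. MTERF1 differed between PSPC1/PTK6 and PSPC1 (3.57 and 1.08 FPKM), and COX8A (43.2 and 18.9) and COX7B (18.7 and 38.5) between PSPC1-Y523F/PTK6 and PSPC1-Y523F. TOP1MT and COX7B were only just past 2-fold, both at -1.01. Of 8 regulators of mitochondrial biogenesis, 7 passed the filter in SK-hep1 and 0 were called in any of its comparisons. When PTK6 was added to PSPC1, 5.39% of all genes tested were higher and 1.03% lower. When it was added to PSPC1-Y523F, these shares were 3.65% and 2.48%. At such shares, lists of these sizes hold few called genes or none.

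In Mahlavu, 3 of 16 genes for transcription and upkeep, 5 of 31 for RNA processing, 2 of 8 regulators of biogenesis and 4 of 26 nuclear subunits were at least 2-fold lower with PSPC1-CT131, and 0 were higher, where 7.67% of the 13051 genes tested were lower and 1.49% higher. TFAM was 30.0 FPKM in mock and 9.86 with PSPC1-CT131, SLIRP 66.4 and 22.5, LRPPRC 163 and 79.3, PPARGC1A (a coactivator of mitochondrial biogenesis) 25.9 and 5.81, and COX7B 104 and 35. POLRMT was 148 and 179 FPKM. The list medians lay between -0.34 and -0.64, against -0.24 over all genes, and the slope with GC content given above holds for this pair as a whole. With Mut-NLS-CT131 and with HGF, 0 genes of these 4 lists were called. Of 27 genes whose RNA mostly lacks a poly-A tail, from 7 to 12 reached 1 FPKM per library. RN7SK, RN7SL1, RMRP, RPPH1, RNU2-2P, RNU12, SCARNA2 and SCARNA10 were listed at 0 in every library. RN7SL2, the RNA of the signal recognition particle, was 91.0, 177, 147, 211 and 88.8 FPKM in the SK-hep1 libraries in the order above. It was 86.5 to 189 in Mahlavu and 1490 and 1725 in Huh-7. In the PSPC1-CT131 pair 5 of the 8 such genes that passed were lower, among them the histone gene H2AC6, at 34.8 FPKM in mock and 9.47 with PSPC1-CT131. The histone gene H1-2 was 94.7 FPKM in mock and 40.6 with Mut-NLS-CT131, and SNORA73B, a small nucleolar RNA, was 4.79 FPKM in untreated Huh-7 and 1.29 with HGF. The part of tail selection in the mitochondrial values was not tested.

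Nuclear copies of mitochondrial genes can share reads with them. The tables hold 417 such genes by symbol, and their summed reads were 0.682% to 1.36% of the mitochondrial reads in the 8 libraries with counts. Only 4 had 50 reads or more in a library, all on chromosome 1: MTND1P23, MTND2P28, MTCO1P12 and MTATP6P1. MTND2P28 shares 98.4% of 1042 bases with MT-ND2, and MTATP6P1 98.5% of 681 bases with MT-ATP6, so the split of reads between them is uncertain. MTND1P23 (99.1% over 352 bases of MT-ND1) had 1 read in each SK-hep1 library and 981, 460 and 560 in the Mahlavu libraries. Copies of MT-ND5, MT-ND6, MT-CYB and MT-RNR2 held 1 to 11 reads per library in all. Even so, MTND6P4 shares 95.0% over 522 bases of MT-ND6, and MTRNR2L8 shares 93.1% over 1303 bases of MT-RNR2. How reads matching both a gene and its copy were counted is not given in the sources used here, and their part in the levels of the stretch was not tested.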

How the data were processed

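RNA was measured by RNA-Seq in 10 libraries, 1 per condition. The authors deposited 1 gene table per library with FPKM values, and read counts in the SK-hep1 and Mahlavu tables. Per the labels, TopHat2 2.0, HTSeq 0.6.1 and edgeR were used with GRCh38.p12, while the study's methods name hg18; strand settings and the treatment of reads shared by genes are not given in the sources used here. All 37 positions equal those of GENCODE 29 (GRCh38). Lines that name no gene, 8 in every table, were left out. Huh-7 reads were recovered from FPKM and gene length, and 100% of genes with a length came out whole within 0.05. Comparisons used log2(FPKM + 1), genes averaging 1 FPKM or more, and a 2-fold call, with no test. Intervals are 95% Wilson for shares and exact binomial, conditional on summed reads, for folds. The calls were run on simulated counts with counting error only. That simulation held no variation between libraries of a condition, so it does not show how reliable the calls are here. Nuclear copies were compared with BLAST 2.17.0. TMM factors came from edgeR 4.0.16. Alternatives were 5 FPKM as minimum, no minimum, pseudocounts of 0.1 and 5, quantile normalization over and within lines, TMM, and, added after seeing the data, a fit that took out length and GC. Named were all coding and rRNA genes, tRNAs with at least 50 reads, PSPC1, PTK6, POLRMT, TFAM, LRPPRC, and from each nuclear list the largest rise and fall past 2-fold per comparison; the split of SK-hep1 libraries and its genes were named after values were seen. The mitochondrial genes and the lists were chosen with earlier results of these data known.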

Additional observations from a re-analysis of the deposited data

Results flagged for a closer look

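The difference that went with adding PTK6 to PSPC1 and that with adding it to PSPC1-Y523F had opposite signs for the summed levels of several groups of mitochondrial genes. Each direction rests on 1 library against 1, and the difference between the contrasts was not tested. On the log2 scale of summed FPKM, the 13 coding genes differed by 0.08 when PTK6 was added to PSPC1 and by -1.30 when it was added to PSPC1-Y523F, a difference of -1.37. The first of these is close to 0, and the median of the coding genes in that pair changes sign with the scaling (0.20 as reported, -0.09 and -0.11 after quantile normalization over and within lines), so the coding genes are not shown to have moved in opposite directions. For the 2 rRNAs the values were -4.70 and 4.15, a difference of 8.85, and for MT-TP they were -6.21 and 4.37, a difference of 10.6. For the ND5-to-RNR2 stretch they were -4.78 and 3.57, a difference of 8.35. For the genes outside the stretch they were 0.18 and -1.41, a difference of -1.58, and 0 of those 10 genes were called in the first pair. The limit on the levels of the stretch given above, that a removal of ribosomal reads in some libraries only was not tested, holds for the rRNAs, MT-TP and the stretch.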

How the results depend on the processing

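Of 72 counts of called mitochondrial genes under 8 alternatives, 70 stayed within 1.5 times the reported count. The exceptions came from taking out gene length and GC content, chosen after seeing the data: 4 in place of 9 genes for PSPC1/PTK6 against mock and 2 in place of 4 for PSPC1-CT131, and the cause was not tested. Having no minimum could not change a count, because the genes with reads all passed the filter and the others had none. Of 1145 values of single genes under an alternative, 0 reversed a called direction. Sizes did change, and the coding median for PSPC1-CT131 was -0.83 as reported and -0.41 with length and GC taken out. Leaving rRNA and RNA without tails out of the total gave shares of 3.42% in untreated Huh-7 and 3.76% with HGF. The 8 other shares stayed inside their intervals. This changed the total only, and the mitochondrial reads still held both rRNAs, so it does not give the share without them. The coding genes alone took 0.922% of all gene reads in SK-hep1 with PSPC1 and 2.79% in untreated Huh-7. TMM scaling moved the median of all genes from 0.15 to 0.00 for PSPC1/PTK6 against mock, from 0.20 to 0.00 for PSPC1/PTK6 against PSPC1, from -0.13 to -0.01 for PSPC1-Y523F/PTK6 against mock, and for PSPC1-CT131 from -0.24 to 0.02. Among all called genes the higher share changed with quantile normalization over lines from 80.7% to 60.5% for PSPC1/PTK6 against mock, from 83.9% to 62.3% against PSPC1, from 16.3% to 50.1% for PSPC1-CT131 and from 32.3% to 49.2% for Mut-NLS-CT131. With TMM it changed from 58.4% to 71.6% for PSPC1-Y523F/PTK6 against mock and from 59.6% to 71.0% against PSPC1-Y523F. No paired analysis was possible because each condition has 1 library. MT-ATP8 and MT-TP rest on few reads in some libraries, and 21 tRNA genes have none. The part of depth in this, and that of how reads shared by neighbouring genes were counted, was not tested.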
